A study of Mus musculus with 6 samples.

Results

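The core circadian clock genes are 10 genes of the transcriptional feedback loop that keeps daily time in mouse cells. They were taken by symbol from a table of raw counts that holds 46095 rows, and all 10 were present and passed the filter on low counts. The members are the activators Arntl, Clock and Npas2 and the repressors Per1, Per2, Per3, Cry1, Cry2, Nr1d1 and Nr1d2. RNA sequencing was done on 6 kidney samples of mice, 3 labelled DHT (dihydrotestosterone, a potent androgen) and 3 labelled control. The strain label names a mouse model of polycystic ovary syndrome (PCOS) on a C57BL/6 background for the control samples too, and only the treatment label separates the groups. The labels give no age, sex, dose, route, duration or hour of tissue collection, and they do not state whether each sample came from its own animal. The p-values therefore cover only the spread seen among these samples, which may be technical.

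In mammals the loop starts when BMAL1, the protein of Arntl, pairs with CLOCK or with its paralogue NPAS2 and binds E-boxes in the promoters of the Per, Cry and Nr1d genes. PER and CRY proteins return to the nucleus and block that pair, while the nuclear receptors REV-ERB alpha and beta, the products of Nr1d1 and Nr1d2, repress Arntl and Npas2 through RORE sites. Activator and repressor transcripts therefore peak at different hours of the day, in the kidney as in other organs, so the levels in a sample also depend on the hour at which it was taken.

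The promoters of the members were searched for the short motifs that clock factors are known to bind. RefSeq sequences (GRCm38.p6) running from 250 bases before to 50 bases after a transcription start were found for 9 of the 10 members, all but Per2, at 13 starts. 5 motifs were searched on both strands: the E-box CACGTG, the related E-prime box CACGTT, the D-box TTATGTAA, the RORE core TAGGTCA and the cyclic AMP element TGACGTCA. None of the 5 motifs shares bases with another in these windows. Shown here are the promoters with a match among the members whose difference between groups passed the test, and that of Cry1, which holds both kinds of E-box. Capitals mark the matches.
Arntl, second start, chr7:113207261-113207560, plus strand: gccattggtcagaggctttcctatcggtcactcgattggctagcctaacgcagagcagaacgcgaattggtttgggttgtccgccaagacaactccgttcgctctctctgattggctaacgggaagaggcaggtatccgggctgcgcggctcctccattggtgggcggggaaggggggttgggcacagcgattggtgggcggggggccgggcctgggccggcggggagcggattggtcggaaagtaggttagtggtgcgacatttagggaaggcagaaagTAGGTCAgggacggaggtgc
Per3, chr4:151044616-151044915, minus strand: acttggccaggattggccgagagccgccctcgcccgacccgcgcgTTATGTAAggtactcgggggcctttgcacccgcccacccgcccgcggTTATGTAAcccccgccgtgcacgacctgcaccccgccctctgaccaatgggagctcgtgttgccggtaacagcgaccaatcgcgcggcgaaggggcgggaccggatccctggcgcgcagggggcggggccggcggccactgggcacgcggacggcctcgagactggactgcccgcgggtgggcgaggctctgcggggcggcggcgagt
Cry2, chr2:92434020-92434319, minus strand: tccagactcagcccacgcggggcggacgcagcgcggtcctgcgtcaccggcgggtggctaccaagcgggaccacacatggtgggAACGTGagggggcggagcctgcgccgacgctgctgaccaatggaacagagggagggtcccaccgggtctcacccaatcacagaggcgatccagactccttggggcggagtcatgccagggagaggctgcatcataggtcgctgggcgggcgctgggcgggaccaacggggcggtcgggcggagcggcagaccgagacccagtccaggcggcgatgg
Cry1, chr10:85185005-85185304, minus strand: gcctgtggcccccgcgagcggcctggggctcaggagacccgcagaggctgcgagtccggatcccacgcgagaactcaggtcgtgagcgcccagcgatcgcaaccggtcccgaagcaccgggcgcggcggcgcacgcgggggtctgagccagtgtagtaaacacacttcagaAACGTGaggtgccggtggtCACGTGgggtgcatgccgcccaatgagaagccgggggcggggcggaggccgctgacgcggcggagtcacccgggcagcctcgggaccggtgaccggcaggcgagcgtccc
The Arntl window holds 1 RORE core, 31 bases after the start, a motif found at 2.61% of all 32851 starts in the table. Per3 holds 2 D-boxes, beginning 205 and 158 bases before its start, against a share of 0.938% of all starts with at least 1. Cry2 has an E-prime box in reverse orientation (AACGTG), and Cry1 has 1 E-prime box and 1 E-box, motifs found at 4.68% and 7.15% of all starts. Per1 also has an E-box and Nr1d1 an E-prime box, and TGACGTCA was found at none of the 13 starts, against 1.79% of all. The windows of Npas2, Nr1d2 and Clock held no match to any of the motifs, nor did the first Arntl start or the second Per1 start. A match describes letters and does not show binding.

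Library totals were 15054763 to 19331942 counts, and the tissue label was met by kidney markers: the 4 proximal tubule markers together gave 6644 to 8683 counts per 1e6 (CPM) in DHT and 7033 to 9709 CPM in control libraries, and Umod, Slc12a1, Aqp2 and Nphs1 were detected throughout. The 2 loop of Henle markers, Umod and Slc12a1, gave 3960 to 4919 CPM in DHT and 3695 to 10693 CPM in control. The 2 collecting duct markers gave 328 to 357 CPM in DHT and 271 to 520 CPM in control. Control replicate 3 was the highest library in both lists. The 2 distal tubule markers gave 1529 to 1772 CPM in DHT and 1404 to 2711 CPM in control, the highest in control replicate 1. Of the adrenal cortex markers, Cyp11b1 had 0 counts in all libraries and Cyp11a1 had 0 in all DHT libraries and 0, 6 and 128 counts in control replicates 1, 2 and 3, and the list summed to 0.475 to 2.19 CPM in DHT and 2.15 to 8.81 CPM in control, the highest in control replicate 3. The 7 macrophage markers gave 102 to 356 CPM in DHT and 101 to 228 CPM in control, the 5 red blood cell markers 2.89 to 70.3 CPM in DHT and 7.82 to 37.5 CPM in control, and the 4 fat cell markers 30.5 to 116 CPM in DHT and 30.3 to 65.6 CPM in control. DHT replicate 2 was the highest library in each of these 3 lists. The 3 liver markers gave 27.0 to 56.4 CPM in DHT and 16.5 to 26.6 CPM in control. Of these, Serpina1a did not overlap between groups, and Alb and Apoa2 did. The part of these cells in the results was not tested. In bulk tissue, fewer cells of a type and less RNA per cell cannot be told apart.

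In DHT kidneys the activators Arntl and Npas2 were 15.4- and 18.0-fold lower, and the repressors Per2, Per3 and Cry2 were higher by 1.83- to 3.79-fold. With edgeR's quasi-likelihood test and Benjamini-Hochberg adjustment over 15367 genes at a threshold of 0.05, 2 of 3 activators were lower and 3 of 7 repressors higher, against 1.46% and 1.38% of all genes tested, or 5 of 10 members in either direction against 2.84%. The other 5 members, Clock, Per1, Cry1, Nr1d1 and Nr1d2, did not pass. All 3 activators had a negative and all 7 repressors a positive log2 fold change. The libraries of the 2 groups did not overlap in 9 of the 10 members, Per1 being the exception, while 29.8% of all genes tested had groups that did not overlap. The count of calls rested on single libraries, over all genes as among the members. Without DHT replicate 3 or control replicate 2 there were 0 calls among the members, where 0 and 7 genes were called in all. Even so, 4 repressors were higher and 3 activators lower at an unadjusted edgeR p under 0.05 in either case. That p was also reached by 17.5% and 17.2% of all genes tested in these fits. Without DHT replicate 1 or control replicate 3 there was 1 call among the members, where 19 and 89 genes were called in all. Without control replicate 1 there were 5 higher and 2 lower, where 366 genes were called in all.

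**Figure D1:**
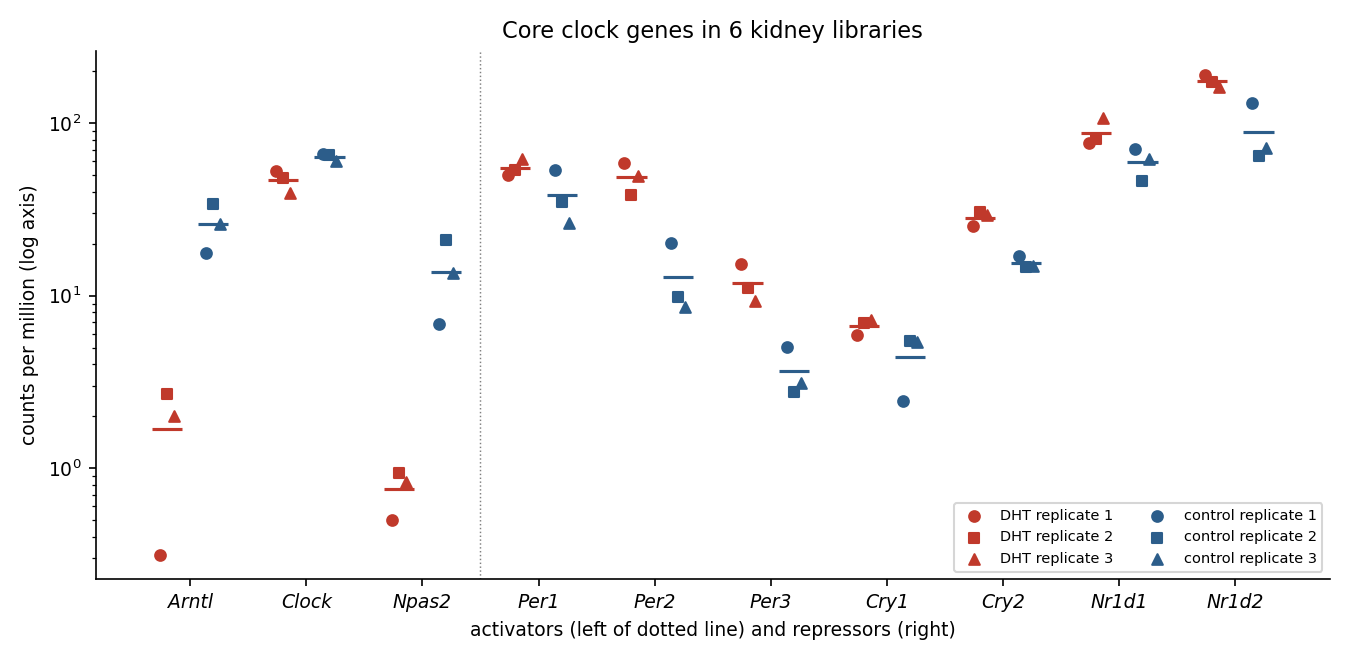
CPM on a log axis for the 10 clock genes in each library, with a bar at the group mean (DHT left of control for each gene). Arntl and Npas2 lie lower in all 3 DHT libraries, and Per1 is the gene whose groups overlap.

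Arntl (chromosome 7, 113207465 to 113314126, GRCm38) encodes BMAL1, the partner that the activator complex needs. It had 0.314, 2.69 and 2.02 CPM in DHT replicates 1, 2 and 3, against 17.6, 33.9 and 26.2 CPM in control replicates 1, 2 and 3. DHT replicate 1 was the lowest, with 5 counts where the other DHT libraries had 43 and 34, and the highest DHT value lay far under the lowest control value. The mean was 1.67 ± 1.23 CPM in DHT and 25.9 ± 8.18 CPM in control (SD, n = 3 each), 15.4-fold lower in DHT with a 95% interval of 5.97 to 39.6 (edgeR adjusted p = 0.0295). The call of Arntl was lost when DHT replicate 3 (adjusted p = 0.118), control replicate 2 (0.121) or control replicate 3 (0.0877) was left out and with no filter on low counts (0.0774), with log2 fold changes of -4.46 to -3.46 over all alternatives.

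Npas2 (chromosome 1, 39193731 to 39363236), which can stand in for CLOCK, had 0.503, 0.939 and 0.831 CPM in DHT replicates 1, 2 and 3, against 6.82, 21.0 and 13.5 CPM in control replicates 1, 2 and 3. In counts these were 8, 15 and 14 against 111, 404 and 272. DHT libraries were all low and close together, and control replicate 1 was the lowest of the controls, as for Arntl. Npas2 averaged 0.758 ± 0.227 CPM in DHT and 13.7 ± 7.07 CPM in control, 18.0-fold lower with a 95% interval of 8.48 to 38.2 (edgeR adjusted p = 0.0136). Among the 225 genes called lower, 3 had a larger decrease than Npas2 and 6 a larger one than Arntl. The call was lost when DHT replicate 1 (adjusted p = 0.0555), DHT replicate 3 (0.0943) or control replicate 2 (0.0582) was left out.

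Clock (chromosome 5, 76209868 to 76304792), which encodes the usual partner of BMAL1, differed far less. It had 52.6, 48.4 and 39.2 CPM in DHT libraries and 66.6, 65.4 and 60.0 CPM in control libraries. The groups did not overlap, but the log2 fold change of -0.45 ± 0.13 SE (95% interval -0.75 to -0.15) did not pass (edgeR adjusted p = 0.0896), nor did it under any of the 13 alternatives (0.0545 to 0.236). The counts of Clock were 105, 51.5 and 47.2 times those of Npas2 in DHT replicates 1, 2 and 3, against 9.77, 3.12 and 4.46 times in control replicates 1, 2 and 3.

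The Period genes encode the PER proteins, which carry CRY into the nucleus. Per2 (chromosome 1, 91415982 to 91459324) had 58.5, 38.1 and 49.5 CPM in DHT replicates 1, 2 and 3, against 20.3, 9.80 and 8.61 CPM in control replicates 1, 2 and 3. Every DHT library was above every control library, and control replicate 1 was the highest control. Per2 was 3.79-fold higher in DHT with a 95% interval of 2.19 to 6.58 (log2 fold change 1.92 ± 0.34 SE, edgeR adjusted p = 0.0385). Per3 (chromosome 4, 151003652 to 151044665), a less essential member of the family, had 15.3, 11.1 and 9.25 CPM in DHT libraries and 5.04, 2.75 and 3.12 CPM in control libraries. It was 3.28-fold higher, with an interval of 2.04 to 5.26 (1.71 ± 0.30, edgeR adjusted p = 0.0345). Both calls were lost when DHT replicate 1 (adjusted p = 0.109 for Per2 and 0.101 for Per3) or 3 (0.134 and 0.113) or control replicate 2 (0.14 and 0.129) or 3 (0.0913 and 0.0877) was left out, and that of Per2 also with no filter on low counts (0.0866).

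Per1 (chromosome 11, 69095217 to 69109960), which also responds quickly to cyclic AMP and glucocorticoid signals, was the member whose groups overlapped. It had 49.8, 53.2 and 62.2 CPM in DHT libraries and 53.4, 35.1 and 26.3 CPM in control replicates 1, 2 and 3. Control replicate 1 stood at the level of the DHT libraries. The log2 fold change was 0.53 ± 0.24 SE (95% interval -0.03 to 1.08, edgeR adjusted p = 0.226), and without control replicate 1 it was 0.84 with an adjusted p of 0.0475.

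The cryptochromes, which bind and silence the activator pair, differed from each other in how even they were. Cry2 (chromosome 2, 92403646 to 92434043) had 25.4, 30.4 and 29.4 CPM in DHT libraries and 17.03, 14.6 and 14.8 CPM in control libraries, with little spread inside either group. It was 1.83-fold higher in DHT with a 95% interval of 1.48 to 2.26 (log2 fold change 0.87 ± 0.13 SE, edgeR adjusted p = 0.0244). This call was lost with total counts (adjusted p = 0.0502), with the replicate block (0.0720) and when DHT replicate 1 (0.0609) or 3 (0.116) or control replicate 2 (0.122) or 3 (0.0668) was left out. The antisense gene D930015M05Rik shares 295 exonic bases with Cry2 and had 2, 1 and 2 counts in DHT libraries and 21, 11 and 9 in control libraries. Use of strand in counting is not given in the sources used here, so reads in the shared bases cannot be told apart.

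Cry1 (chromosome 10, 85131700 to 85185064), the stronger repressor of the pair, had 5.91, 6.95 and 7.24 CPM in DHT libraries, against 2.46, 5.45 and 5.39 CPM in control replicates 1, 2 and 3. Control replicate 1 was low, with 40 counts, and the other controls came close to the DHT libraries. The log2 fold change was 0.59 ± 0.32 SE (95% interval -0.14 to 1.32, edgeR adjusted p = 0.295), and 0.30 without control replicate 1. Cry1 was the repressor for which control replicate 1 was the lowest of the controls; for the other 6 repressors it was the highest.

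Nr1d2 (chromosome 14, 18204054 to 18239127), which encodes REV-ERB beta, had 191, 173 and 162 CPM in DHT libraries, against 132, 64.8 and 71.8 CPM in control replicates 1, 2 and 3. Control replicate 1 lay between the DHT libraries and the other controls. Its log2 fold change of 0.97 ± 0.26 SE (95% interval 0.38 to 1.57) did not pass (edgeR adjusted p = 0.0774), but it did with DESeq2 (adjusted p = 0.00415) and without control replicate 1 (1.35, edgeR adjusted p = 0.00703). Of the Nr1d2 transcript, 29.6% has a match in another gene, AC170187.1, which is less than the share set for a near-identical copy. Whether this match affects the counts of Nr1d2 was not tested.

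Nr1d1 (chromosome 11, 98767932 to 98775333), which encodes REV-ERB alpha, had 76.4, 80.5 and 107 CPM in DHT libraries and 70.4, 46.0 and 61.9 CPM in control libraries. The groups stood close, with DHT replicate 1 just above control replicate 1. The log2 fold change was 0.57 ± 0.19 SE (95% interval 0.139 to 0.996) and did not pass (edgeR adjusted p = 0.12). Nr1d1 shares 263 exonic bases, 8.55% of its exons, with Thra, a thyroid hormone receptor gene on the opposite strand, which had 747, 759 and 893 counts in DHT libraries and 850, 1323 and 1622 in control libraries. The log2 fold change of Thra was -0.45 (edgeR adjusted p = 0.137), and reads in the shared bases cannot be told apart.

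Set against each other by library, the arms lay apart in every DHT sample. The mean of the 3 activators lay at -3.50, -2.38 and -2.66 log2 units from the control mean in DHT replicates 1, 2 and 3, while the mean of the 7 repressors lay at 1.08, 1.001 and 1.10. In control replicates 1, 2 and 3 the activators lay at -0.43, 0.41 and 0.03 and the repressors at 0.30, -0.16 and -0.14. The repressor mean had an SD of 0.0511 over the 3 DHT libraries and the activator mean one of 0.582. Single repressors were less even: DHT replicate 1 was the highest of the DHT libraries for Per2, Per3 and Nr1d2 and the lowest for Per1, Cry1, Cry2 and Nr1d1. Among the activators, Arntl, with 5 counts in DHT replicate 1, had the widest spread in DHT (SD 1.46 log2). The activator mean minus the repressor mean of log2 CPM was -3.28 ± 0.61 in DHT and 0.62 ± 0.67 in control (SD, n = 3 each), a difference of -3.91. It was between -4.28 and -3.57 when any library was left out, and it is given as a description with no test.

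**Figure D2:**
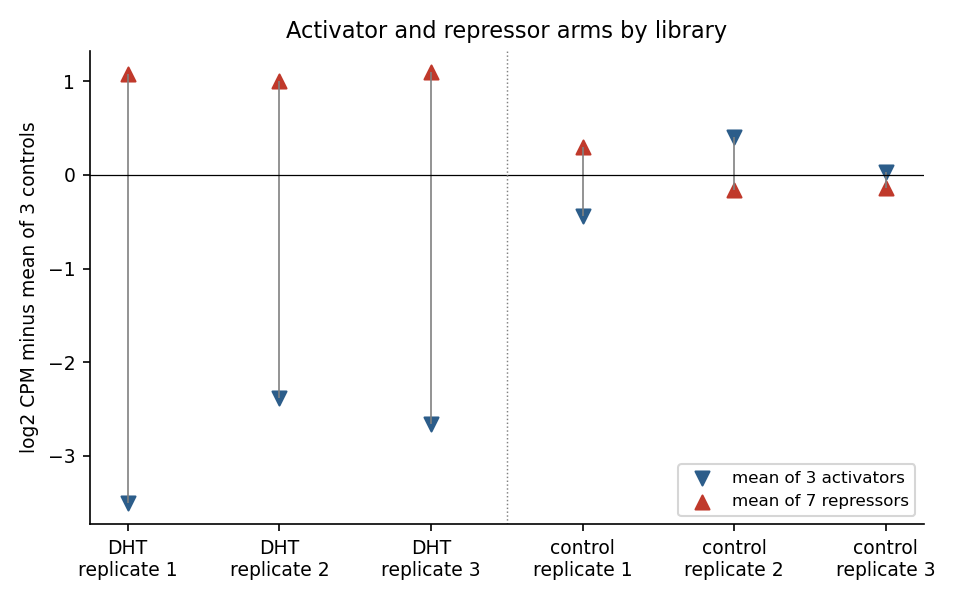
Mean log2 CPM of the 3 activators and of the 7 repressors in each library, relative to the mean of the 3 controls. The arms lie far apart in all 3 DHT libraries, and control replicate 1 is the control in which the repressors lie above the activators.

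The ratio of Per2 to Arntl shows the same contrast in CPM. It was 186, 14.2 and 24.5 in DHT replicates 1, 2 and 3, against 1.15, 0.289 and 0.329 in control replicates 1, 2 and 3. Per2 exceeded Arntl in all DHT libraries and in control replicate 1, and lay below it in the other controls.

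The controls differed among themselves along the same lines. Control replicate 1 had the lowest Arntl and Npas2 and the highest Per1, Per2, Per3, Cry2, Nr1d1 and Nr1d2 of the 3 controls, which places it nearest to the DHT libraries in 8 of the 10 genes. Control replicate 2 had the highest Arntl, Npas2 and Cry1 and the lowest Per3, Cry2, Nr1d1 and Nr1d2. The SD of log2 CPM had a median of 0.24 over the members in DHT and 0.49 in control, where all genes tested had medians of 0.22 and 0.20. The members were therefore more spread than the typical gene among the controls and close to it among the DHT libraries, a description with no test.

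**Figure D3:**
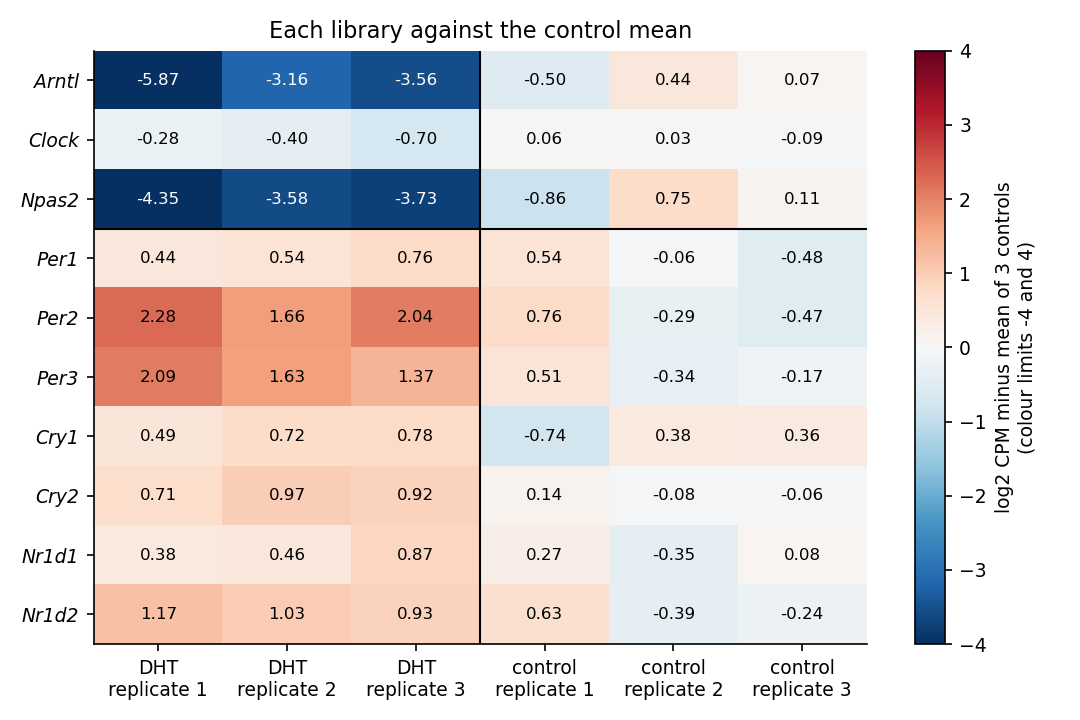
Log2 CPM of each member (rows) in each library (columns) minus the mean of the 3 controls. Arntl and Npas2 reached -5.87 and -4.35 in DHT replicate 1, beyond the colour limit, and control replicate 1 shows the signs of the DHT columns in Arntl, Npas2 and 6 repressors.

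The library order of the clock genes was set beside the androgen-raised gene Cyp4b1, a cytochrome P450, which is no member. Cyp4b1 had 3895, 1173 and 3662 CPM in DHT replicates 1, 2 and 3, against 222, 217 and 128 CPM in control replicates 1, 2 and 3. DHT replicate 2 was the weakest DHT library in Cyp4b1, and it also had the smallest gap between the arms. Its activator minus repressor value was -2.75, against -3.95 and -3.14 in DHT replicates 1 and 3. Among the controls, replicate 2 had the highest such value, 1.19 against -0.11 and 0.79 in control replicates 1 and 3. The control weakest in Cyp4b1 was instead replicate 3. The repressor mean alone hardly differed, at 1.08, 1.001 and 1.10 in DHT replicates 1, 2 and 3. A link between Cyp4b1 and the clock genes was not tested. Control replicate 1, the control nearest to DHT in the clock genes, had nearly the same Cyp4b1 level as control replicate 2.

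Levels between genes were compared as CPM per kilobase of exon sequence. In DHT kidneys the order of mean levels was Nr1d2, Nr1d1, Per1, Per2, Cry2, Clock, Cry1, Per3, Arntl and Npas2, at 32.5, 28.6, 9.78, 8.32, 4.49, 3.41, 2.01, 1.24, 0.223 and 0.158 CPM per kb. In control kidneys it was Nr1d1, Nr1d2, Per1, Clock, Arntl, Npas2, Cry2, Per2, Cry1 and Per3, at 19.3, 16.5, 6.79, 4.66, 3.44, 2.87, 2.45, 2.20, 1.33 and 0.378 CPM per kb. Arntl and Npas2 thus took the last places in DHT and stood in the middle of the order in control. Among the DHT libraries, the neighbours Nr1d2 and Nr1d1, Per1 and Per2, and Arntl and Npas2 overlapped, and the other neighbours did not. Among the controls, the libraries of all neighbours overlapped, except Nr1d2 with Per1 and Cry1 with Per3. The lengths take in all annotated exons of a gene, whether or not the kidney uses them.

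**Figure D4:**
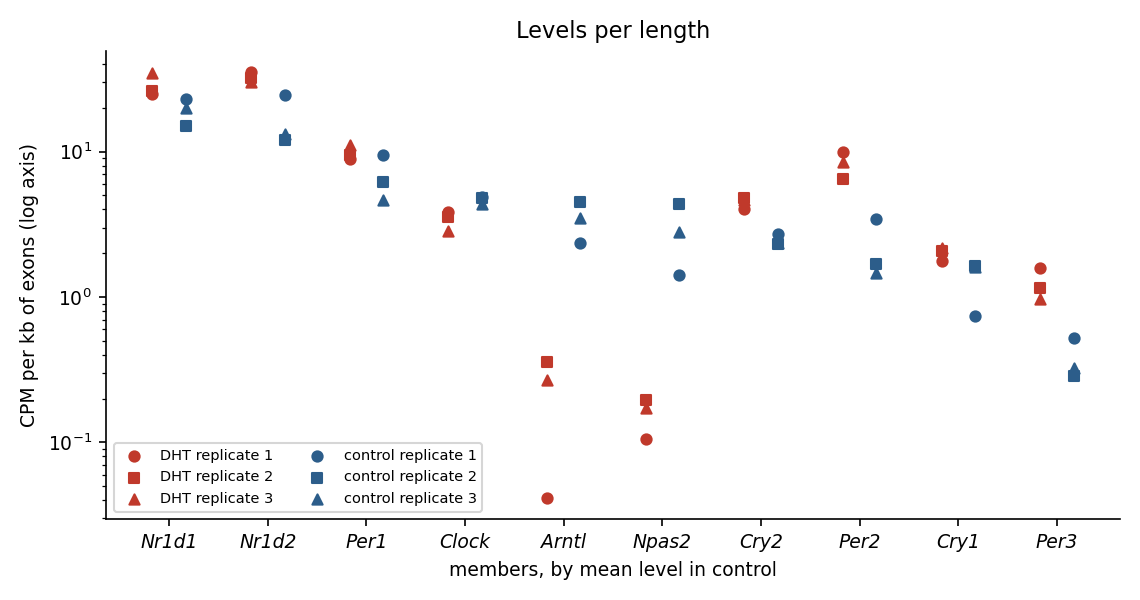
CPM per kb of exons on a log axis for each member and library, ordered by the control mean (DHT left of control for each gene). Arntl and Npas2 hold the last places in the DHT libraries, while Nr1d1 and Nr1d2 lead in both groups.

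Around the 10 members stand other transcription factors of the clock, which were taken as a list of 12. Of these, 2 were higher, 1 lower and 9 not called, where 1.38% of all genes tested were higher and 1.46% lower. The median log2 fold change was 0.54 against 0.003 over all genes tested. DESeq2 called 6 higher and 1 lower, and limma-voom 3 higher and 1 lower. Of all 15367 genes, DESeq2 called 1634 and limma-voom 321. An unadjusted edgeR p under 0.05 was found for 9 of the 12, against 23.9% of all genes tested. Ciart, which encodes a repressor of the activator pair, averaged 12.3 ± 5.70 CPM in DHT, against 0.958 ± 0.448 CPM in controls (log2 fold change 3.70 ± 0.50 SE, edgeR adjusted p = 0.0175), but 58.1% of its transcript has a near-identical copy in Gm9176, so its value is uncertain. The D-box is the site of Tef, Dbp and Hlf, which activate, and of Nfil3, which represses. Tef was higher, at 399 ± 66.3 CPM in DHT, against 139 ± 30.8 CPM in controls (1.52 ± 0.20, edgeR adjusted p = 0.0155), and Nfil3 lower, at 2.94 ± 0.459 CPM in DHT, against 12.98 ± 4.95 CPM in controls (-2.14 ± 0.33, edgeR adjusted p = 0.0238). Tef shares 2.45% of its exonic bases with an antisense gene. Left out in turn, DHT replicate 1 (adjusted p = 0.0629, 0.0572 and 0.0823), DHT replicate 3 (0.103, 0.0943 and 0.118) and control replicate 2 (0.0836, 0.0847 and 0.102) each ended the calls of Ciart, Tef and Nfil3. Those of Ciart and Nfil3 were also lost without control replicate 3 (0.0705 and 0.0649), and that of Nfil3 with the replicate block (0.0661).

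Further factors of this list were chosen after their values were seen. Dbp had 178, 141 and 229 CPM in DHT replicates 1, 2 and 3, against 27.9, 3.06 and 11.9 CPM in control replicates 1, 2 and 3. The groups lay far apart, yet the spread among controls was large, control replicate 1 again being the nearest to DHT, and Dbp did not pass (log2 fold change 3.68 ± 0.74 SE, edgeR adjusted p = 0.0589). Rora, which encodes an activator at the RORE, the site that REV-ERB proteins occupy in the Arntl promoter, averaged 70.3 ± 7.42 CPM in DHT, against 52.8 ± 10.47 CPM in controls, and did not pass (edgeR adjusted p = 0.17). Bhlhe41, a repressor at E-boxes, was at 6.59 ± 0.421 CPM in DHT, against 2.59 ± 1.16 CPM in controls (edgeR adjusted p = 0.0614).

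**Figure D5:**
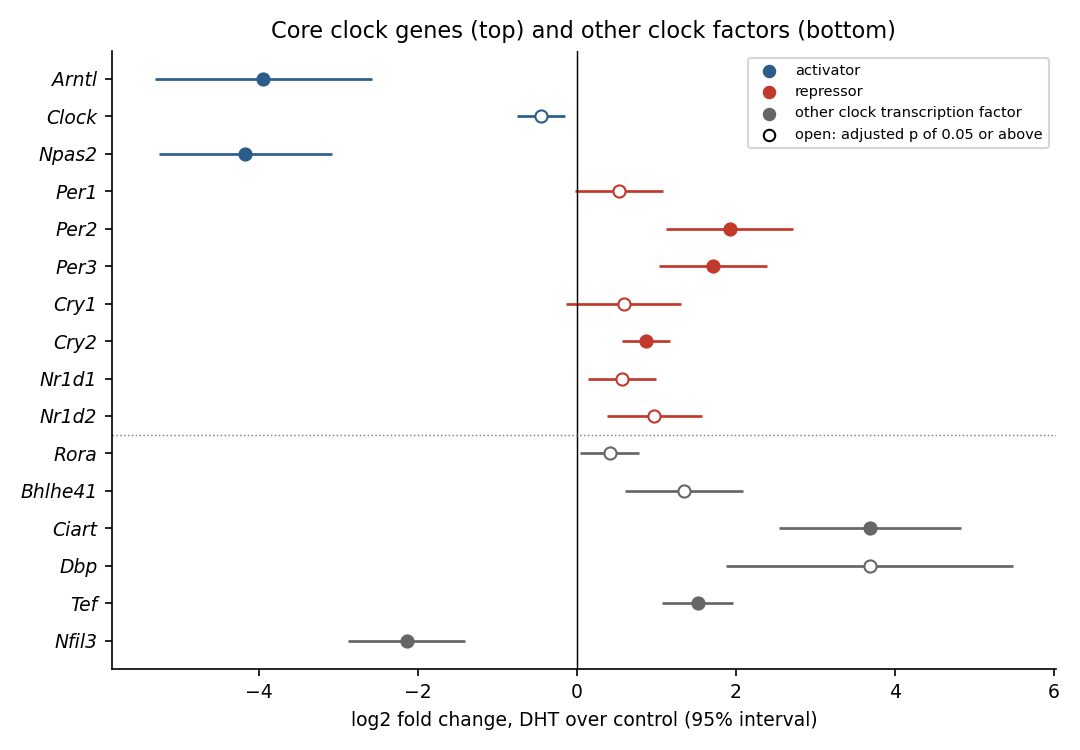
Log2 fold changes of DHT over control with 95% intervals for the 10 members (top) and for Ciart, Tef, Nfil3, Dbp, Rora and Bhlhe41 (bottom). Points are filled where the edgeR adjusted p was under 0.05. Among the members, activators lie left and repressors right of 0, and Arntl and Npas2 lie farthest left. Of the other factors shown, Nfil3 lies left of 0.

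Kinases and phosphatases set the pace of the loop by marking its proteins. Of 16 tested enzymes of this kind that act on PER, CRY and BMAL1, edgeR, DESeq2 and limma-voom each called 0. By edgeR 2.84% of all genes tested were called. It gave 0 of the 16 at an unadjusted p under 0.05, against 23.9% of all genes tested. The smallest p values belonged to the phosphatase subunit Ppp2ca and the kinases Mapk9 and Csnk2a2, with log2 fold changes of 0.24, -0.20 and 0.28. Ppp2ca shares 39.9% of its exonic bases with 9430098F02Rik on the opposite strand, so part of its reads cannot be told apart. Csnk1d and Csnk1e, the casein kinases that mark PER for destruction, had log2 fold changes of -0.04 (95% interval -0.29 to 0.20) and -0.19 (-0.56 to 0.17). Csnk2b, listed with them, had 0 counts in all libraries and was not tested.

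Of 14 ubiquitin ligases and deubiquitinases, 1 was higher and 0 lower, against 1.38% and 1.46% of all genes tested. Usp2, a deubiquitinase that acts on PER1 and BMAL1, was at 178 ± 46.2 CPM in DHT, against 76.6 ± 16.9 CPM in controls (log2 fold change 1.22 ± 0.23 SE, edgeR adjusted p = 0.0385). Usp2 shares 4.15% of its exonic bases with genes on the other strand, and its call was lost when DHT replicate 1 (adjusted p = 0.116) or 3 (0.144) or control replicate 2 (0.145) or 3 (0.0984) was left out and with the replicate block (0.0669).

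Of 26 coactivators, corepressors and chromatin partners, 1 was higher and 0 lower, against 1.38% and 1.46% of all genes tested. With DESeq2 and with limma-voom 1 was higher. At an unadjusted p under 0.05 there were 4 of 26, against 23.9% of all genes tested. The called gene was Nampt, the enzyme of NAD salvage that feeds the clock deacetylase SIRT1, at 272 ± 24.8 CPM in DHT, against 173 ± 8.09 CPM in controls (log2 fold change 0.65 ± 0.13 SE, edgeR adjusted p = 0.0395). Nampt kept its call without DHT replicate 2 and lost it when any other library was left out (adjusted p = 0.0677 to 0.145), with total counts (0.0624) and with the replicate block (0.0920). Of 15 genes that carry input signals, 0 were higher and 1 lower, with 1 higher and 3 lower by DESeq2 and 0 of either by limma-voom. Over all 15367 genes, DESeq2 called 1634 and limma-voom 321. An unadjusted edgeR p under 0.05 was found for 5 of the 15, against the same 23.9%. The called gene was Ppargc1a, a coactivator of ROR proteins and of mitochondrial genes, at 85.5 ± 7.62 CPM in DHT, against 123 ± 5.10 CPM in controls (-0.53 ± 0.11, edgeR adjusted p = 0.0491). Its call was lost when any single library was left out (0.0519 to 0.151), with limma-voom (0.0550), with no robust step (0.0501) and with the replicate block (0.0969).

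The genes outside the 10 members that were most like Arntl and Per2 across the libraries were found by the root mean square difference of centred log2 CPM over the 6 libraries, among genes averaging 1 CPM or more. Among the members, Npas2 lay at 0.66 log2 units from Arntl, and Per3 at 0.29 from Per2. Of the other genes, those nearest to Arntl were Hdc, which encodes histidine decarboxylase, Slc22a29, Slc17a2, G630018N14Rik and Gm35815, at 0.70 to 0.86 log2 units. Hdc had 0.126, 0.877 and 0.712 CPM in DHT replicates 1, 2 and 3, against 5.60, 5.97 and 22.2 CPM in control replicates 1, 2 and 3. DHT replicate 1 was the lowest library for Hdc as for Arntl (0.314 CPM), both values being near the floor. Among the controls the 2 genes differed: Hdc was highest in replicate 3 and Arntl in replicate 2. Hdc was called lower (edgeR adjusted p = 0.0418), a call lost under 8 of the 13 alternatives. Slc22a29 has a near-identical copy in Slc22a27 over 91.9% of its transcript and is uncertain. Among the nearest to Per2 were Slc51a, a bile acid and steroid exporter subunit, Nat8f2, Rundc3a and LOC102631979, at 0.18 to 0.31 log2 units. Slc51a had 124, 103 and 123 CPM in DHT libraries, against 49.99, 32.1 and 22.9 CPM in control replicates 1, 2 and 3. It shares 17.7% of its exonic bases with Pcyt1a on the opposite strand, so part of its reads cannot be told apart.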

How the data were processed

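RNA of 6 kidney samples was sequenced after Trizol extraction and standard Illumina mRNA library preparation, per the labels' protocols. HISAT2 2.0 and build mm10 were used, per the submitters' processing notes. What tool, annotation, strand setting and filters the counting used is not given in the sources. The authors deposited raw counts per gene symbol, with no normalization, and columns were assigned to samples by title.

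Counts were tested with edgeR 4.0.16 in R 4.3.3: filterByExpr (minimum count 10, minimum total 15) left 15367 genes, which were scaled by TMM and fitted with a robust quasi-likelihood model of group, and p-values were adjusted by Benjamini-Hochberg (threshold 0.05). Each SE is the one implied by the F statistic. CPM use TMM-scaled library sizes, and log2 CPM a prior count of 2. The common biological coefficient of variation was 0.217. Pairs of libraries of a group differed by 23.3 to 64.0 chi-square units per gene, so none was counted as a repeat. The test was also run on simulated counts in which every gene had the common biological coefficient of variation. That run does not cover genes with a wider spread, such as Arntl in DHT (SD 1.46 log2). Alternatives were median-ratio factors, total counts, no filter, DESeq2 1.42.0, limma-voom (limma 3.58.1), no robust step, a replicate block and leaving out each library. Coordinates, exon lengths and overlaps are from GENCODE M21 (GRCm38), near-identical transcripts (at least 95% identity over 50% of the transcript) from BLAST 2.17.0+, and promoters from RefSeq. Of 84 listed other clock genes with a row, 83 were tested. All 10 members are named. Of each other list the called genes were named, or the 3 of smallest p, and for Arntl and Per2 the 5 most like genes; some genes are not reported here. Members, lists and tests were chosen with earlier results of these data known. Csnk1d, Csnk1e, Rora, Dbp, Bhlhe41 and Cyp4b1 were named after their values were seen.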

Additional observations from a re-analysis of the deposited data

How the results depend on the processing

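No member changed direction under any of the 13 alternatives: of 130 values, 105 kept their side of the threshold, 22 lost a call and 3 gained one. Members called higher numbered 0 to 5 and lower 0 to 2 when single libraries were left out, and over all genes 0 to 1224 were called, against 437. With no filter on low counts 1 member was lower, Npas2, and 852 genes were called in all. DESeq2 called 1634 genes and the replicate block 85. Under the block 2 members were higher and 2 lower, Cry2 losing its call. Over all genes, deviations of same-numbered libraries correlated at 0.07, -0.15 and 0.04, so the numbers were not taken to pair the samples. In both groups, however, Arntl and Npas2 were lowest in replicate 1 and highest in replicate 2. Per2, Per3 and Nr1d2 were highest in replicate 1 of both groups, but Per1, Cry2 and Nr1d1 only in control. Clock was highest in replicate 1 and lowest in replicate 3 of both groups. Cry1 was lowest in replicate 1 of both groups, but highest in replicate 3 in DHT and in replicate 2 in control. The activator minus repressor values ranked alike by number, at -3.95, -2.75 and -3.14 in DHT and -0.11, 1.19 and 0.79 in control. The labels do not say that a number marks a pair. Total counts moved the median of all genes by -0.11 log2, and no member's sign. The activator minus repressor difference stayed between -4.28 and -3.57 when recomputed with median-ratio factors, total counts, a prior count of 0.5 (-4.01), without the cryptochromes (-4.02) and without each library. Depth limits Arntl and Npas2 in DHT most, with 82 and 37 counts over 3 libraries.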
